A study of Rattus norvegicus with 19 samples.

Results

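SR proteins and heterogeneous nuclear ribonucleoproteins (hnRNPs) are the main families of RNA-binding proteins that choose splice sites in pre-mRNA. Their genes were followed here in cultured ventral spinal cord of the rat. Members were all genes of the deposited table whose symbol is Srsf followed by a number or begins with Hnrnp. This rule gave 29 genes of 15597, 11 of the SR family and 18 of the hnRNP family, and all 29 passed the filter on low values described below. The cultures came from wild-type Sprague-Dawley embryos at embryonic day 14, and all groups shared this background. They were exposed for 90 min to 100 μM long-chain synthetic polyphosphate (polyP, n = 5), to medium conditioned by astrocytes of transgenic mice that express G93A mutant human SOD1 (mutSOD1-ACM, n = 5), or to medium from mouse astrocytes that carry the wild-type human protein (wtSOD1-ACM, n = 4), and were compared with untreated cultures (control, n = 5). SOD1 is a superoxide dismutase, and its G93A mutation is a cause of inherited amyotrophic lateral sclerosis (ALS). The conditioned media hold whatever the astrocytes released, in the growth medium of the spinal cultures, and the untreated cultures are a control without any conditioned medium. The labels give the culture age as 7 days in vitro in one field and 4 in another, and they speak of 4 to 5 independent cultures per condition where the design text speaks of quadruplicates.

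SR proteins carry a domain of alternating arginine and serine residues, bind exonic enhancers, and recruit U1 and U2 components to nearby splice sites. Many hnRNPs act the other way, as silencers that bind exons or introns and loop out or mask splice sites, and several also shuttle to the cytoplasm and control transport, stability and translation of mRNA. The balance between the families sets the choice of many alternative exons, and neurons use it widely. Most SR genes and many hnRNP genes contain a poison exon whose inclusion sends the transcript to decay, by which the proteins limit their own levels. Human hnRNP A1 and hnRNP A2/B1 have prion-like domains, and mutations in them cause ALS or related disease. The values here are per gene, so isoforms with and without a poison exon cannot be told apart.

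Levels are given as FPKM, read fragments scaled by transcript length and by library depth, as the authors deposited them. Tests were made with limma on log2(FPKM + 1) over 11887 genes (those with 1 FPKM or more in 4 or more of the 19 libraries), adjusted p-values are by the Benjamini-Hochberg method over all of these genes, and a gene was called when its adjusted p was under 0.05. Depth, as estimated relative to the median library, ran from 0.845 to 1.351 in polyP libraries, from 0.856 to 1.202 in mutSOD1-ACM libraries, from 0.799 to 1.221 in wtSOD1-ACM libraries and from 0.763 to 1.232 in control libraries, and the absolute depth is unknown. Clustering split the libraries into 2 sets, with 2 libraries of every group in set 2 and the other 11 in set 1. The labels give no batch. The myelin gene Mbp had 6.54 to 9.62 FPKM in set 2 and 169 to 372 FPKM in set 1. Within set 1, control replicate 2 stood apart, with a summed level of 8 neuron markers of 922 FPKM, against 1267 to 1524 FPKM in the other 10 libraries of that set, and with the highest sum of 8 microglia markers, 595 FPKM. In bulk cultures, fewer cells of a type and less RNA per cell cannot be told apart.

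The members were among the abundant transcripts of these cultures. Hnrnpa2b1 led with a mean of 679 FPKM over the 19 libraries, rank 68 of all genes by mean level, followed by Hnrnpa1 at 585, Hnrnpa3 at 424, Hnrnpk at 376 and Hnrnpab at 328 FPKM. Srsf2 was the highest SR gene at 214 FPKM. In all, 17 members ranked among the first 1000 genes. Srsf12, which encodes a small SR-like protein with restricted expression, was far below the rest at 6.73 FPKM, rank 8621. The next lowest, Srsf10, stood at 44.4 FPKM. FPKM are scaled by length, so levels of different genes can be compared on this scale. Hnrnpa1 and several other members have processed pseudogenes in rodent genomes, and how reads shared with such copies were assigned is not given in the sources used here.

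**Figure D1:**
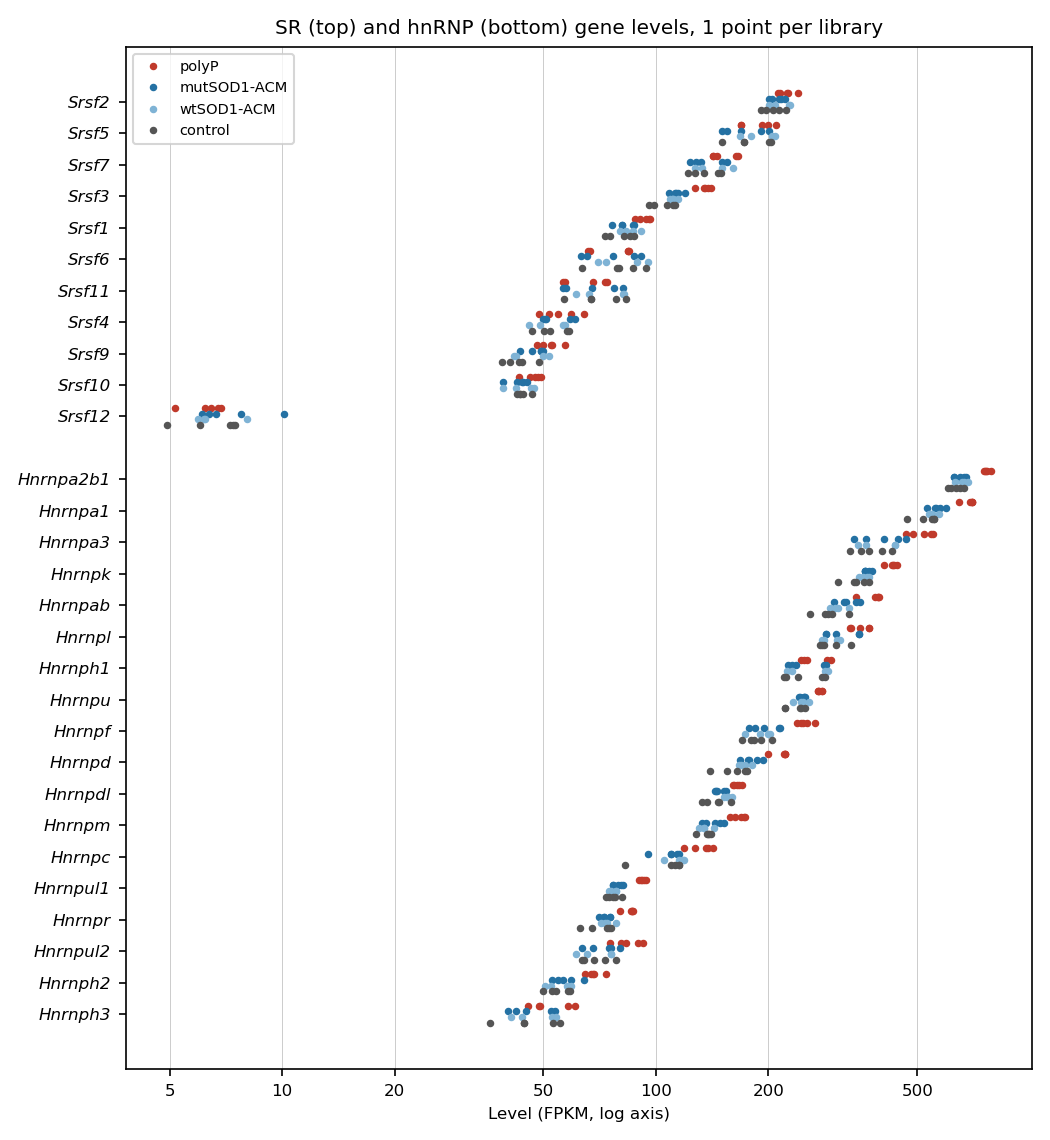
FPKM of the 29 genes on a log axis, 1 point per library and 1 row per gene, SR genes above and hnRNP genes below, each family sorted by mean level. Points are coloured by group, with polyP at the top of each row and control at the bottom. In most hnRNP rows the polyP points lie to the right of the other 3 groups, and in most SR rows the groups overlap.

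Replicates of a group differed little for most members. The coefficient of variation within a group ran from 1.24% to 22.0% with a median of 7.02%. The mean of the polyP libraries was the highest of the 4 group means for 25 members, and the mean of the control libraries was the lowest for 22. These orders were not counted over all genes. Of the 11887 genes tested, 6625 had a log2 change above 0 with polyP against control. Summed over the 18 hnRNP genes, levels were 4806 to 5112 FPKM in polyP libraries, 4066 to 4449 FPKM in mutSOD1-ACM libraries, 4069 to 4258 FPKM in wtSOD1-ACM libraries and 3689 to 4242 FPKM in control libraries. No polyP library overlapped a library of another group in this sum. Summed over the 11 SR genes, levels were 1021 to 1162 FPKM in polyP libraries, 932 to 1096 FPKM in mutSOD1-ACM libraries, 951 to 1133 FPKM in wtSOD1-ACM libraries and 905 to 1092 FPKM in control libraries, and all 4 groups overlapped when the library sets were pooled. Within each library set, every polyP library lay above all other libraries in the SR sum. In set 1 the lowest polyP library had 1021 FPKM and the highest other library 999.9 FPKM. In set 2 these values were 1142 and 1133 FPKM. These sums are of values as deposited, and FPKM summed over all genes was itself higher with polyP, at 1.08 times the control level. With equal summed FPKM, the median log2 change with polyP against control was -0.021 for SR genes and -0.058 for all genes. The SR sums were not compared after such scaling. The members together made up 1.183% to 1.223% of all FPKM in polyP libraries, 1.085% to 1.125% with mutSOD1-ACM, 1.083% to 1.144% with wtSOD1-ACM and 1.038% to 1.129% in control libraries.

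Since most hnRNP genes were higher with polyP and most SR genes gave no call, promoters of the members were read from RefSeq (build GRCr8), with windows that run from 250 bases before a transcription start to 50 bases after it. All 29 genes matched, with 33 windows. The parts before the start are shown for the gene with the smallest p with polyP (Hnrnpa1), for the SR gene with the smallest p with polyP (Srsf3), and for an SR gene that was not called (Srsf6). Capitals mark the GC box GGGCGG, the CCAAT box and the TATA box TATAAA on either strand. On the other strand the CCAAT box reads ATTGG, and the GC box reads CCGCCC. The sequences are on the plus strand, at chr7:136253868-136254117 for Hnrnpa1, chr20:7093335-7093584 for Srsf3 and chr3:172008822-172009071 for Srsf6.
Hnrnpa1: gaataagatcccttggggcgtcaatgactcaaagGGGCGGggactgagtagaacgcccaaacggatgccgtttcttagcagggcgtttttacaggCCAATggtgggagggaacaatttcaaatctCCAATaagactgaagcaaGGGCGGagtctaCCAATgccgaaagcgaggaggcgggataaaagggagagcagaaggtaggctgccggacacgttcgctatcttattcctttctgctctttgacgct
Srsf3: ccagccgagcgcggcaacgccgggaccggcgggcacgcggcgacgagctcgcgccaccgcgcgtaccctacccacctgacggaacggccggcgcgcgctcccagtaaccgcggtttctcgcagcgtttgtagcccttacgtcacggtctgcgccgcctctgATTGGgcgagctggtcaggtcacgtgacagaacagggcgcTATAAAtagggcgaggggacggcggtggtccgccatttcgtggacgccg
Srsf6: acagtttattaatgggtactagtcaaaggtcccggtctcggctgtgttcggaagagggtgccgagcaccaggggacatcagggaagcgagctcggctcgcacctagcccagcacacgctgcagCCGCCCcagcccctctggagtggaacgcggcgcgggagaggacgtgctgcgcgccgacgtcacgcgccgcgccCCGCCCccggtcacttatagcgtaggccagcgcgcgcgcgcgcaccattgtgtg

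Hnrnpa1 held 3 CCAAT boxes and 2 GC boxes in this stretch, Srsf3 a CCAAT box and a TATA box, and Srsf6 a pair of GC boxes. Over the whole windows and both strands, the CCAAT box was present in 18 of 21 hnRNP windows (85.7%) and in 5 of 12 SR windows (41.7%), against 37.5% of all 33365 promoter windows. The GC box was present in 75.8% of the member windows and 33.1% of all windows, and the core bound by ETS factors, CCGGAAG, in 24.2% and 8.77%. TATAAA was present in 21.2% of member windows and 14.2% of all windows, GCATGCGC, related to the NRF1 motif, in 3.03% and 2.48%, and the cyclic AMP response element TGACGTCA in 0 of 33 member windows and 1.83% of all windows. Member windows were rich in G and C, with a median of 65.0% against 51.7% over all windows, which bears on the counts of the GC-rich motifs. These motifs are short, and the counts describe letters in the windows and no more. Whether any motif goes with a call was not tested, and the stretches shown are single examples.

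The first comparison asked which splicing factor genes changed with polyP. Of the 29 members 19 rose and 0 fell, where 23.0% of all tested genes rose and 8.77% fell (limma, adjusted p under 0.05). Of the hnRNP genes 16 of 18 rose, and of the SR genes 3 of 11, or 27.3%, which is near the share of all genes. The difference between the families was not tested. The called rises were small and even, between 0.19 and 0.45 on the log2 scale, or 1.14 to 1.36 times the control level. The median log2 change was 0.28 for the hnRNP genes, 0.091 for the SR genes and 0.043 for all genes tested. With libraries scaled to equal summed FPKM, that of the SR genes turned to -0.021 and that of all genes to -0.058. For 16 of the 29 members, all of them called, the 5 polyP values lay above all 5 control values. This held in the upward direction for 14.6% of all genes tested.

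Among the hnRNP A and B genes, Hnrnpa1 (identifier 29578) encodes a shuttling splicing repressor. It had 699.8, 699, 645, 702 and 693 FPKM in polyP libraries, against 554, 469.8, 556, 519 and 548 FPKM in control libraries. The lowest polyP library was thus above the highest control library, and the log2 change was 0.38 ± 0.049 (SE; limma adjusted p = 0.000107), the smallest p among the members. Hnrnpa2b1 (362361), the gene of a close relative that binds exported and transported mRNAs, had 763, 787, 767, 760.4 and 756 FPKM in polyP libraries, against 615, 603, 668, 649.6 and 634 FPKM in control libraries. Its log2 change was 0.28 ± 0.038 with no overlap (limma adjusted p = 0.000131). Hnrnpab (83498), whose product binds RNA and single-stranded DNA, had 385, 392, 343, 396 and 394 FPKM in polyP libraries, against 283, 258, 296, 289 and 328 FPKM in control libraries. The groups did not overlap here either, and the log2 change was 0.39 ± 0.063 (limma adjusted p = 0.000251). Hnrnpa3 had the largest log2 change of all members, 0.45 ± 0.095 (limma adjusted p = 0.00174), with 544, 553, 519.9, 487 and 467 FPKM in polyP libraries, against 403, 372, 429, 329.9 and 354 FPKM in control libraries. Its groups did not overlap, although they spread more widely than those of the other A and B genes.

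The hnRNPs that bind C-rich, AU-rich or G-rich RNA followed. Hnrnpk (117282), the gene of a KH-domain protein that binds C-rich tracts, had 431, 442, 406, 434 and 429 FPKM in polyP libraries, against 343, 307, 372, 339.6 and 360.0 FPKM in control libraries. Its groups did not overlap, and its log2 change was 0.32 ± 0.046 (limma adjusted p = 0.000163). Hnrnpd (79256) encodes AUF1, which binds AU-rich elements and takes part in mRNA decay. It had 219, 221, 199, 222 and 222 FPKM in polyP libraries, against 164, 139.8, 173, 155 and 175 FPKM in control libraries. The log2 change of 0.43 ± 0.059 (limma adjusted p = 0.000131) was without overlap. Hnrnpf (64200), the gene of a protein that binds runs of G, had 253, 267, 245, 238 and 248 FPKM in polyP libraries, against 191, 180.0, 204, 169.9 and 183 FPKM in control libraries. This was a log2 change of 0.43 ± 0.065 with no overlap (limma adjusted p = 0.000182). Its relative Hnrnph2 (308650) rose as well (0.32 ± 0.064, limma adjusted p = 0.00128), with 64.4 to 73.4 FPKM in polyP libraries, against 49.7 to 58.8 FPKM in control libraries. Hnrnph1 (0.098 ± 0.098) and Hnrnph3 (0.17 ± 0.12), of the same subfamily, were the only hnRNP genes that were not called, with limma adjusted p of 0.468 and 0.296 and 95% intervals of the log2 change from -0.11 to 0.30 and from -0.082 to 0.43.

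Hnrnpu (117280) encodes the nuclear scaffold protein SAF-A, which binds chromatin and RNA. It had 272, 271, 273, 278 and 278 FPKM in polyP libraries, against 221, 222, 251, 244 and 242 FPKM in control libraries, a log2 change of 0.22 ± 0.042 (limma adjusted p = 0.000803). Its paralog Hnrnpul1 (361522) had 91.7, 92.7, 91.1, 94.1 and 90.3 FPKM in polyP libraries, against 76.5, 74.8, 80.9, 73.6 and 77.6 FPKM in control libraries, a log2 change of 0.26 ± 0.037 (limma adjusted p = 0.000138). In both genes the polyP libraries lay close together and above every control library. The third paralog, Hnrnpul2, also rose (0.28 ± 0.082, limma adjusted p = 0.0157), with overlapping groups. The remaining hnRNP genes rose by log2 changes of 0.29 (Hnrnpm), 0.26 (Hnrnpr, whose product binds SMN), 0.19 (Hnrnpdl), 0.32 (Hnrnpc, which binds uridine tracts) and 0.26 (Hnrnpl, which binds CA repeats), with limma adjusted p from 0.000258 (Hnrnpm) to 0.00930 (Hnrnpl). Of these 5 genes only Hnrnpl had overlapping groups.

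**Figure D2:**
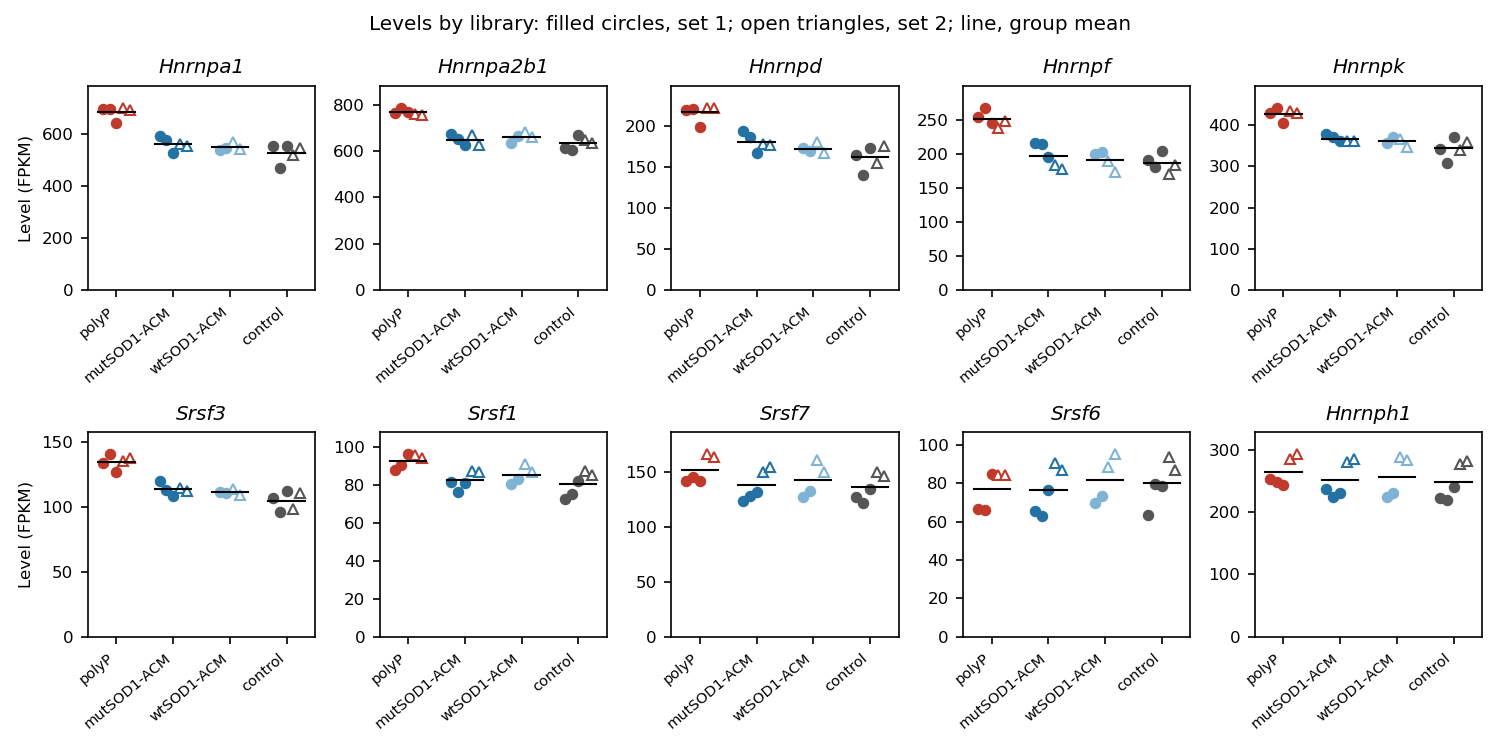
FPKM of 10 genes by library, with axes starting at 0, groups from left to right polyP, mutSOD1-ACM, wtSOD1-ACM and control, filled circles for set 1, open triangles for set 2 and a line at the group mean. In the upper row and for Srsf3 and Srsf1 all polyP libraries lie above all control libraries. For Srsf7, Srsf6 and Hnrnph1 the triangles of the other groups reach or pass polyP circles, and the distance between sets is as large as or larger than that between groups.

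In the SR family, Srsf3 stood out. Srsf3 (361814), the smallest SR protein and an adaptor for mRNA export, had 134, 141, 127, 136 and 138 FPKM in polyP libraries, against 107, 95.8, 112, 98.6 and 111 FPKM in control libraries. With no overlap its log2 change was 0.36 ± 0.048 (limma adjusted p = 0.000123), in size among those of the hnRNP genes. Srsf1 (689890), the founding member of the family, had 87.8, 90.4, 96.2, 95.8 and 94.2 FPKM in polyP libraries, against 72.8, 75.1, 81.9, 87.2 and 85.5 FPKM in control libraries. The lowest polyP library passed the highest control library by less than 1 FPKM, and the log2 change was 0.21 ± 0.058 (limma adjusted p = 0.0106). Srsf9 (288701) had 48.0, 52.7, 50.01, 52.3 and 57.2 FPKM in polyP libraries, against 38.7, 40.8, 43.01, 43.9 and 48.8 FPKM in control libraries. It rose by 0.27 ± 0.073 on the log2 scale (limma adjusted p = 0.00876), and the overlap came from control replicate 5, the highest control library.

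Other SR genes gave no call. Srsf2 (494445), a nuclear speckle protein, had 212, 215, 239.6, 226 and 224 FPKM in polyP libraries, against 191, 197, 206, 213 and 223 FPKM in control libraries (0.12 ± 0.053, limma adjusted p = 0.104). Srsf7 (362687), an export adaptor like Srsf3, had 142, 145, 142, 166 and 163 FPKM in polyP libraries, against 128, 121, 134, 149.6 and 147 FPKM in control libraries (0.16 ± 0.083, limma adjusted p = 0.157). In both genes the groups overlapped. The log2 changes of Srsf4, Srsf5, Srsf6, Srsf10, Srsf11 and Srsf12 lay between -0.096 (Srsf11) and 0.091 (Srsf10), with limma adjusted p from 0.244 to 0.765. Srsf6 (362264), an exonic enhancer-binding SR protein, had 66.6, 65.9, 84.9, 84.4 and 84.3 FPKM in polyP libraries, against 63.5, 79.6, 78.6, 94.0 and 86.8 FPKM in control libraries, and the groups overlapped over most of their range. Srsf5 (29667) had 169, 169, 192, 209 and 199.8 FPKM in polyP libraries, against 150.4, 172, 173, 200.1 and 203 FPKM in control libraries, again with overlap. Srsf4 (362612) and Srsf10 (362630), a splicing repressor in its dephosphorylated form, ran from 48.5 to 64.1 and from 42.9 to 49.3 FPKM in polyP libraries, and from 46.5 to 58.6 and from 42.5 to 46.7 FPKM in control libraries. Srsf12 (297962) had 6.21, 5.17, 6.72, 6.85 and 6.44 FPKM in polyP libraries, against 7.37, 4.91, 6.03, 7.47 and 7.27 FPKM in control libraries, and so crossed the groups at a low level. Intervals for these genes were wide, for example from -0.37 to 0.17 for Srsf11 and from -0.14 to 0.28 for Srsf5.

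Summed FPKM, a quantity that moves with the make-up of the whole library, was itself higher with polyP, at 502342 ± 12154 against 464188 ± 13827 in controls (SD, n = 5 each), a ratio of 1.08 (exact two-sided permutation p = 0.00794, the smallest that 5 against 5 libraries can give). Scaling every library to an equal sum lowered the median log2 change of all genes by 0.101 and left 13 of the 29 members called, all higher, where 11.8% of all genes were higher and 14.0% lower. Under this scaling 45.7% of all calls were higher, where it was 72.4% with the values as deposited. Relative to the median of all genes, the median member changed by 0.22 as deposited, 0.21 with median-of-ratios scaling, 0.20 with equal sums and 0.077 with quantile normalization. For the hnRNP genes these values were 0.24, 0.23, 0.23 and 0.13, and for the SR genes 0.048, 0.043, 0.037 and -0.026. Calls numbered 17 with median-of-ratios scaling, where 16.1% of all genes were higher and 12.4% lower (56.5% of calls higher), and 14 with quantile normalization, where 19.5% of all genes were higher and 9.30% lower (67.7% of calls higher). Hnrnpa2b1, among the most abundant genes, turned to -0.028 with quantile normalization, which gives all libraries the same distribution of values. Hnrnpa1, the member with the smallest p as deposited, had 0.11 there and was not called (limma adjusted p = 0.055). Hnrnpf, Hnrnpd, Hnrnpa3, Hnrnpab and Srsf3 kept log2 changes of at least 0.25 and their calls under all 3 scalings.

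**Figure D3:**
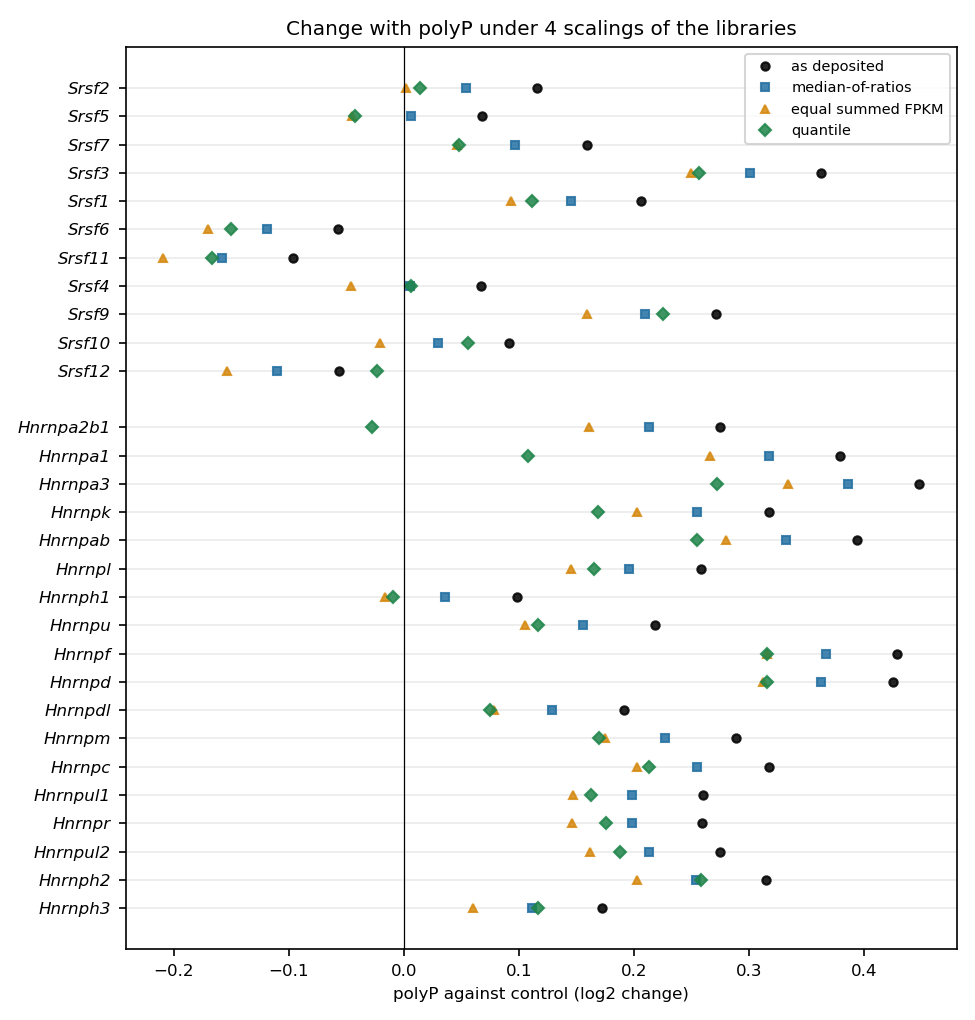
Log2 change of each gene with polyP against control under 4 scalings of the libraries: as deposited, median-of-ratios, equal summed FPKM and quantile. The deposited values lie furthest to the right for all 29 genes except Srsf12, and most hnRNP genes and Srsf3 stay above 0 under every scaling, while Hnrnpa2b1 reaches -0.028 under quantile normalization.

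Markers of other cells were checked beside these changes. Of 6 markers of dividing cells 4 rose with polyP (Pcna, Ccnb1, Cdk1 and Birc5), and their summed level was 313 to 379 FPKM in polyP libraries, 221 to 296 FPKM in mutSOD1-ACM libraries, 227 to 265 FPKM in wtSOD1-ACM libraries and 215 to 272 FPKM in control libraries. Mki67, a marker of cycling cells, had 17.9 ± 3.27 FPKM with polyP and 17.7 ± 4.58 FPKM in controls (SD, n = 5 each) and was not called. The part of dividing cells in the changes of the members was not tested. With polyP, 1 of 6 oligodendrocyte markers (Mobp), 1 of 5 fibroblast markers (Col1a1) and the only endothelial marker tested (Flt1) fell, and 0 of 8 neuron, 0 of 6 astrocyte and 0 of 8 microglia markers were called (limma). In summed level, the fibroblast list ran from 466 to 917 FPKM with polyP and from 716 to 1156 FPKM in controls. The endothelial list ran from 5.91 to 9.23 FPKM with polyP and from 9.66 to 12.2 FPKM in controls, and the microglia list from 57.3 to 190.5 FPKM with polyP and from 51.3 to 595 FPKM in controls. Summed neuron markers were 1267 to 1660 FPKM with polyP, 1317 to 1491 FPKM with mutSOD1-ACM, 1344 to 1436 FPKM with wtSOD1-ACM and 922 to 1524 FPKM in controls, and summed astrocyte markers were 201 to 328 FPKM with polyP, 216 to 359 FPKM with mutSOD1-ACM, 221 to 363 FPKM with wtSOD1-ACM and 214 to 428 FPKM in controls. No marker was listed at 0 in any library, and the part of these cells was not tested. Without control replicate 2, the library that stood apart, polyP again gave 19 calls, the same 19 genes.

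Many members also differed between the 2 sets of libraries. Of the 11 SR genes 9 had a higher mean in set 2 than in set 1 in all 4 groups and 0 a lower one in all 4. Of the 18 hnRNP genes 5 were higher in all 4 groups, 5 were lower and 8 were mixed. Over all genes tested 38.6% were higher and 28.2% lower in all 4 groups. The sets were formed from all genes, the members among them, so these values are a description, and the families were not compared. Srsf11, an arginine and serine-rich splicing regulator, had 73.0 to 83.2 FPKM in the 8 libraries of set 2, against 56.4 to 68.0 FPKM in the 11 of set 1, a log2 difference of 0.34. Hnrnph3 (52.5 to 60.8 against 35.9 to 48.9 FPKM), Hnrnph1 (277 to 293 against 219.8 to 254 FPKM), Srsf4 (56.5 to 64.1 against 45.7 to 54.6 FPKM) and Srsf7 (147 to 166 against 121 to 145 FPKM) likewise did not overlap between set 2 and set 1, which held in this direction for 7.98% of all genes. At the other end Hnrnpa3 had 329.9 to 487 FPKM in set 2 and 372 to 553 FPKM in set 1, a log2 difference of -0.25, and Hnrnpul2, Hnrnpl, Hnrnpf and Hnrnph2 were also lower in set 2 in all 4 groups. The Rn28s transcript of ribosomal RNA moved with the sets, at 284 to 584 FPKM in set 2 and 2346 to 5176 FPKM in set 1, as did the myelin marker Mbp, and their part in the difference was not tested. Genes with a large difference between sets had wide intervals when the sets were pooled. Srsf7, Srsf2, Hnrnph1 and Hnrnph3 were called once the set was a term of the fit, which gave 23 calls, all higher, with all 18 hnRNP genes among them. Calls over all genes rose as well in that fit, to 32.7% higher and 19.4% lower. Within each set alone, polyP gave 17 calls against control, all higher, and every one of the 17 was among the 19. Of all genes, 28.1% were higher in set 2 alone and 15.3% in set 1 alone. Srsf6 and Srsf11 were not called in any of these fits.

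**Figure D4:**
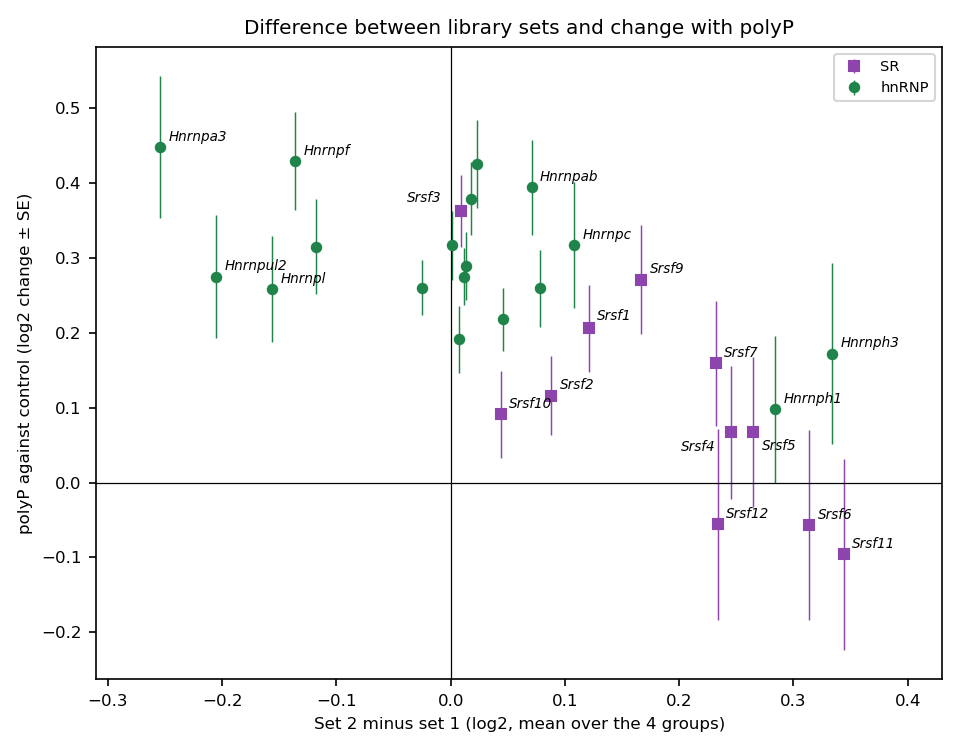
Log2 change with polyP against control (vertical, ± SE) and log2 difference of set 2 minus set 1 averaged over the 4 groups (horizontal) for the 29 genes, with squares for SR genes and circles for hnRNP genes. Hnrnpa3 lies furthest to the left at -0.25 and Srsf11 furthest to the right at 0.34, and the genes that were not called with polyP, apart from Srsf2 and Srsf10, lie to the right of 0.2.

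Next, polyP was compared with mutSOD1-ACM, the other exposure named in the study's title. Of the 29 members 16 were higher with polyP and 0 lower, where 14.8% of all genes tested were higher and 4.90% lower. The hnRNP family gave 14 of 18 and the SR family 2 of 11, Srsf3 and Srsf1. The called log2 differences lay between 0.15 and 0.35, with medians of 0.22 over the hnRNP genes, 0.12 over the SR genes and 0.040 over all genes. For 15 of the 29 members, all of them called, the polyP values lay above all mutSOD1-ACM values. This held upwards for 12.3% of all genes. This comparison shares its polyP libraries with the one above, so it adds no second measurement of them. Whether replicate numbers pair the cultures was not settled. With the replicate number as a block, 19 members were called, the same 16 with Hnrnpl (0.17, limma adjusted p = 0.0202), Hnrnpul2 (0.21, limma adjusted p = 0.00841) and Srsf7 (0.14, limma adjusted p = 0.0429). In that fit 21.6% of all genes were higher and 10.1% lower.

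The 8 called members with the smallest p were all genes described above but for Hnrnpm. Hnrnpa2b1, for which the polyP values are given above, had 674, 652, 626, 668 and 627 FPKM in mutSOD1-ACM libraries, a log2 difference of 0.24 ± 0.038 for polyP minus mutSOD1-ACM (limma adjusted p = 0.00115). Hnrnpa1 had 595, 577, 530.1, 562 and 556 FPKM in mutSOD1-ACM libraries (0.29 ± 0.049, limma adjusted p = 0.00146). Every polyP library of both genes lay above every mutSOD1-ACM library. Hnrnpul1 had 81.7, 80.8, 79.1, 76.9 and 77.0 FPKM in mutSOD1-ACM libraries (0.22 ± 0.037, limma adjusted p = 0.00149). Hnrnpf had 215, 214, 195, 184 and 178 FPKM there (0.35 ± 0.065, limma adjusted p = 0.00249), with the lowest polyP library at 238 FPKM. Again neither gene overlapped between the groups. Srsf3 had 120.0, 113, 108, 115 and 113 FPKM in mutSOD1-ACM libraries (0.25 ± 0.048, limma adjusted p = 0.00345). Hnrnpk had 378, 371, 362, 362 and 362 FPKM (0.22 ± 0.046, limma adjusted p = 0.00424). Hnrnpm, whose product takes part in alternative splicing in many tissues, had 173, 172, 158, 168 and 162 FPKM in polyP libraries, against 152, 149, 133, 144 and 136 FPKM in mutSOD1-ACM libraries (0.22 ± 0.046, limma adjusted p = 0.00434). Hnrnpd had 194, 186, 167, 178 and 176 FPKM in mutSOD1-ACM libraries (0.26 ± 0.059, limma adjusted p = 0.00665). All 8 genes were without overlap.

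The number of calls in this comparison moved with the processing. Equal summed FPKM left 8, median-of-ratios scaling 9 and quantile normalization 10, all among the 16, where 6.62%, 6.47% and 9.38% of all genes were higher. Under these scalings 51.3%, 52.0% and 64.6% of all calls were higher, where it was 75.2% as deposited. With quantile normalization Hnrnpa2b1 (0.035) and Hnrnpa1 (0.081) were not called (limma adjusted p = 0.744 and 0.203). Set 1 alone, with 3 libraries a group, gave 0 calls in limma, where 60 of all genes were higher and 56 lower, and set 2 alone, with 2 libraries a group, gave 15 higher (13 of them among the 16) and 1 lower, Srsf12 (-0.37, limma adjusted p = 0.0485), where 22.7% of all genes were higher and 15.4% lower. Median member log2 differences within the sets were 0.19 in set 2 and 0.17 in set 1. The call of Srsf1 was lost when any polyP or mutSOD1-ACM library other than polyP replicate 1 or mutSOD1-ACM replicate 4 was left out (adjusted p up to 0.117). That of Hnrnpdl was lost without polyP replicate 4 or mutSOD1-ACM replicates 1, 2 or 5, that of Hnrnpc without polyP replicates 2, 4 or 5 or mutSOD1-ACM replicate 3, and that of Hnrnpab without mutSOD1-ACM replicate 3.

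Conditioned media were then compared with untreated cultures. With mutSOD1-ACM 0 of the 29 members were called in limma, where 0.0168% of all genes were, and 3 members had an unadjusted p under 0.05, where 3.58% of all genes had. Those were Hnrnpd (0.16 ± 0.059), Hnrnpab (0.17 ± 0.063) and Srsf3 (0.12 ± 0.048), with a limma adjusted p of 0.966 each. In Hnrnpab the mutSOD1-ACM libraries had 343, 352, 299.9, 319 and 322 FPKM, and the 5 control libraries given above reached 328 FPKM, so the groups overlapped. All 18 hnRNP genes had a log2 difference above 0, as did 6137 of the 11887 genes tested. With median-of-ratios scaling 18 of 18 did as well, but 13 of 18 did with equal summed FPKM and 12 of 18 with quantile normalization. Median differences were 0.065 for the hnRNP genes, 0.030 for the SR genes and 0.005 for all genes. Relative to all genes, the hnRNP median was 0.06 as deposited and with median-of-ratios scaling, 0.056 with equal sums and 0.004 with quantile normalization. Over the 29 members the 95% intervals of the log2 difference lay within -0.34 and 0.40.

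With wtSOD1-ACM 0 of 29 members were called in limma, where 0.631% of all genes were, and 1 member, Hnrnpdl, had an unadjusted p under 0.05, where 3.72% of all genes had. Its limma adjusted p was 1. Hnrnpdl, which encodes a relative of hnRNP D, had 156, 159.8, 155 and 152 FPKM in wtSOD1-ACM libraries, against 133, 137, 159, 148 and 146 FPKM in control libraries, a log2 difference of 0.11 ± 0.048 with overlap. The median difference over the members was 0.058, against 0.000 over all genes, and 25 of 29 members were above 0. That count was 26 with median-of-ratios scaling, but 21 with equal summed FPKM and 22 with quantile normalization. Relative to all genes, the member median was 0.058 as deposited and 0.057 with equal sums. Intervals lay within -0.28 and 0.33.

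Between the media, mutSOD1-ACM against wtSOD1-ACM, 0 of 29 members were called in limma and 0 had an unadjusted p under 0.05, where 0.471% and 5.04% of all genes did. The smallest p-values were those of Hnrnpm (0.076 ± 0.049), Hnrnpdl (-0.072 ± 0.048) and Hnrnpab (0.089 ± 0.067), with a limma adjusted p of 0.998 each. Hnrnpab had 343, 352, 299.9, 319 and 322 FPKM in mutSOD1-ACM libraries, against 301, 291, 328 and 308 FPKM in wtSOD1-ACM libraries, and the groups overlapped. Differences were 16 above 0 and 13 below, with a median of 0.024 for the members and 0.006 for all genes. The intervals lay within -0.38 and 0.41, so differences of the size seen with polyP are not shut out for the genes with wide intervals. For Hnrnpa2b1, Hnrnpu and Hnrnpul1 the upper bounds were 0.059, 0.10 and 0.13.

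**Figure D5:**
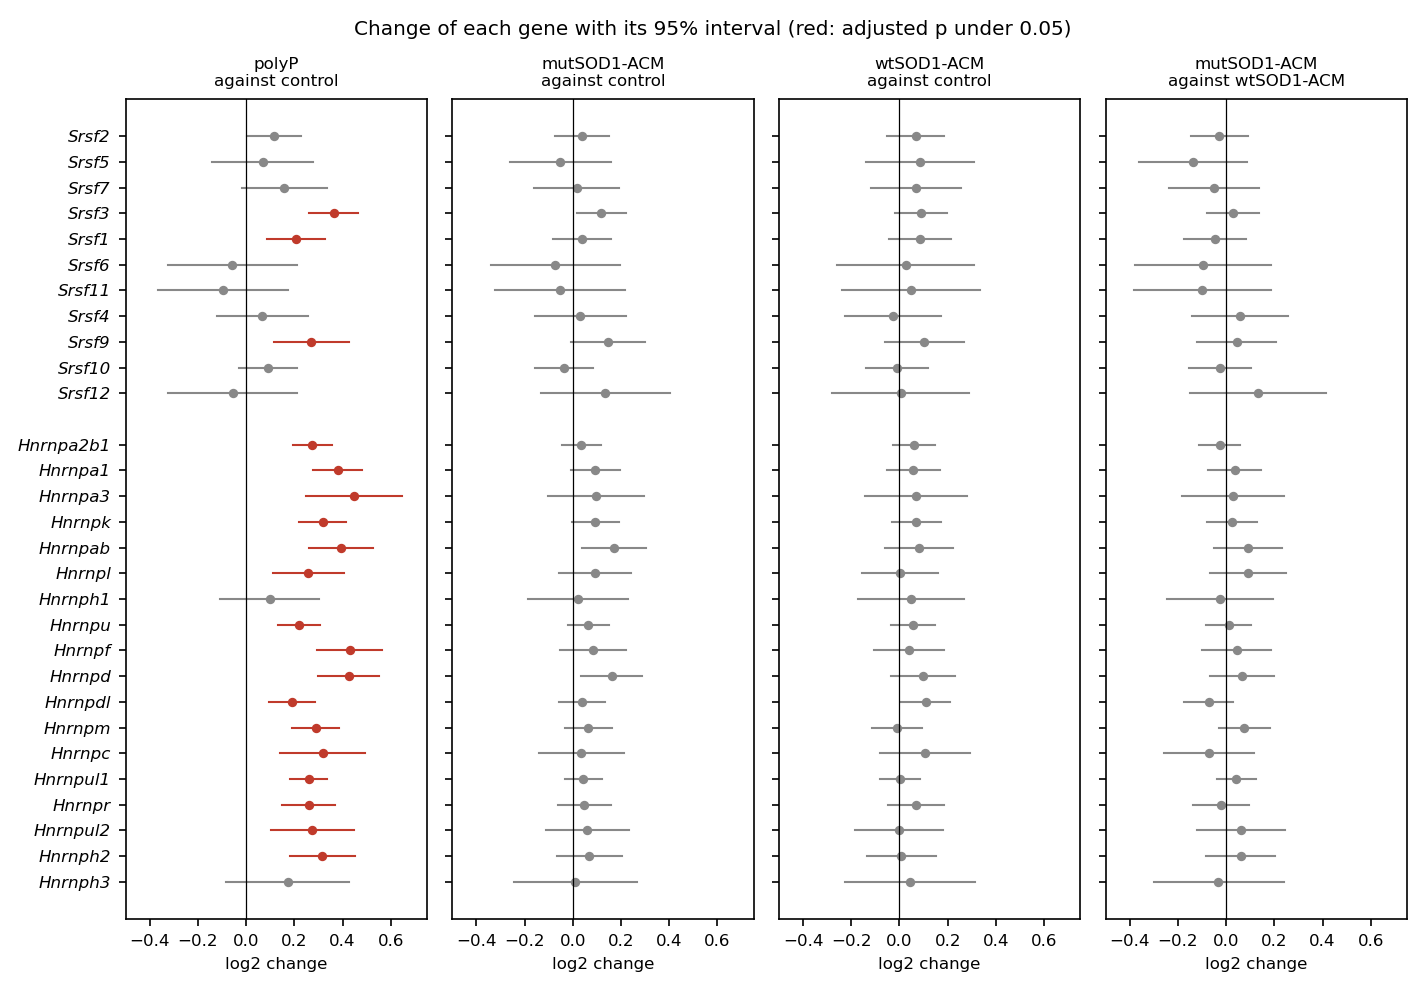
Log2 change of the 29 genes with its 95% interval in 4 comparisons, from left to right polyP against control, mutSOD1-ACM against control, wtSOD1-ACM against control and mutSOD1-ACM against wtSOD1-ACM. Red marks an adjusted p under 0.05, which occurs for 19 genes in the first panel and for 0 in the other 3.

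Other genes of RNA splicing were read from lists. Of 44 tested genes of core spliceosome components 25 (56.8%) rose with polyP against control and 0 fell, where 23.0% of all genes rose and 8.77% fell. Their median log2 change was 0.22, against 0.043 over all genes, with 35 genes above 0 and 9 below. The lowest was that of Snrnp70 (-0.65, limma adjusted p = 0.093), which was not called and was named after its values were seen. The smallest p-values were those of Snrnp27, of the tri-snRNP, with 36.0 ± 1.32 FPKM with polyP and 26.8 ± 1.73 FPKM in controls (0.42, limma adjusted p = 6.47e-05), Snrpb2, of the U2 snRNP (0.50, limma adjusted p = 0.000123), Snrpd1, of the Sm ring (0.54, limma adjusted p = 0.000131), and Prpf31 (0.32, limma adjusted p = 0.000253). Of 32 other RNA-binding proteins related to the SR and hnRNP families 13 (40.6%) rose and 1 fell, with a median of 0.14. Rbm3, a cold-inducible RNA-binding protein, had 404 ± 18.9 FPKM with polyP and 301 ± 20.6 FPKM in controls (0.42, limma adjusted p = 9.12e-05), and Nono (0.36), Raly (0.41) and Khdrbs1 (0.37) followed with limma adjusted p of 0.000170, 0.000177 and 0.000190. The gene that fell was Srrm2, the large scaffold of nuclear speckles, with 156 ± 34.8 FPKM with polyP and 219.8 ± 30.5 FPKM in controls (-0.51, limma adjusted p = 0.0127), and it was named after its values were seen. Of 16 kinases, phosphatases and import receptors that act on SR proteins 4 (25.0%) rose and 0 fell, a share near that of all genes, with a median of 0.043, the same as over all genes. Those that rose were all 3 catalytic subunits of protein phosphatase 1, Ppp1cc (0.31), Ppp1ca (0.30) and Ppp1cb (0.39), and the SR protein kinase Srpk2 (0.20), with limma adjusted p of 0.000123, 0.000365, 0.00273 and 0.0137. In the same list the kinases Clk1 (-0.47), Clk2 (-0.39), Clk3 (-0.27), Clk4 (-0.46) and Prpf4b (-0.49), which phosphorylate splicing factors, had log2 changes below 0 that were not called, with limma adjusted p from 0.0554 (Prpf4b) to 0.312 (Clk3), and they were named after their values were seen. Of 19 neural and tissue splicing regulators 1 (5.26%) rose, Nova1 (0.25, limma adjusted p = 0.0474), and 0 fell.

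Against mutSOD1-ACM, polyP libraries were higher for 21 of the 44 spliceosome genes, 10 of the 32 related RNA-binding proteins, 3 of the 16 kinases, phosphatases and receptors and 0 of the 19 neural and tissue regulators, and lower for 0 in each list (limma). These are 47.7%, 31.2%, 18.8% and 0 of the lists, where 14.8% of all genes were higher and 4.90% lower, so the share of kinases, phosphatases and receptors was near that of all genes. Neither conditioned medium gave a call in any of the 4 lists against control, with unadjusted p under 0.05 for 9 of 111 genes (8.11%) with mutSOD1-ACM, where 3.58% of all genes had one, and for 1 (0.901%) with wtSOD1-ACM, where 3.72% had, and mutSOD1-ACM against wtSOD1-ACM gave 0 calls and 0 such p-values.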

How the data were processed

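Gene expression was measured by poly(A) TruSeq sequencing in 19 libraries, described as strand-specific in the design text, per the labels' protocols. The authors deposited 1 table of FPKM per gene, with 2 decimals. Reads were aligned with HISAT to rn6, per the submitters' processing notes. Tool versions, the annotation, the program that made the FPKM and any further scaling are not stated in the labels or notes. Relative depth was estimated from steps in the low values of 250 genes. Of their 1626 values 84.19% were whole within 0.1 fragment. The smallest value of each gene was taken as 1 fragment, and the depths were fitted to the same values. This share is thus no independent check of the depths, and no counts were recovered.

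Tests used limma 3.58.1 with statmod 1.5.0 in R 4.3.3 on log2(FPKM + 1), with all 19 libraries in 1 fit, the group as the only term, and empirical Bayes with trend and robust estimation. This scale understates changes of low genes. The fit was tested on simulated data. The settings and outcome of that test are not given here, so it is no check of the p-values in these libraries. Errors are SD of FPKM or SE of log2 changes. Libraries were taken as separate cultures on the word of the labels. Where this is wrong, p-values measure technical spread. Members and lists were chosen with earlier results of these data known, and library sets came from hierarchical clustering of all genes tested. Named in full are the 8 called members with the smallest p per comparison and, for polyP against control, also Srsf1, Srsf2, Srsf7 and Hnrnpu, and up to 4 genes per list. Other genes were chosen after their values were seen. Deviations of same-numbered polyP and mutSOD1-ACM libraries from their group means correlated across genes at r of 0.688 to 0.764. In the other comparisons at least 1 pair was under 0.1. Same-numbered polyP and mutSOD1-ACM libraries also fell in the same library set, so these values cannot show whether the numbers pair the cultures. Alternatives were a pseudocount of 0.1, no filter, 3 scalings, the 2 groups alone, the replicate block, the library set, each set alone and each library left out.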

Additional observations from a re-analysis of the deposited data

Results flagged for a closer look

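Across the 29 genes and 4 groups, 116 groups of values were examined for a single library far from the others of its group. In all, 8 were found, which is near the rate of about 1 in 20 that chance gives for normal values. Each group holds libraries of both sets, so that rate is approximate. The genes share their libraries, so the 8 are not independent of each other. Among polyP libraries, 4 of the 8 concern replicate 3, which was the lowest for Hnrnpa1 at 645.07 FPKM (the others 693 to 702), for Hnrnpab at 343.04 FPKM (385 to 396), for Hnrnpd at 199.02 FPKM (219 to 222) and for Hnrnpr at 80.15 FPKM (85.6 to 86.6). Control replicate 2 was the lowest for Hnrnpm at 128.29 FPKM (137 to 140.0) and for Hnrnpc at 82.38 FPKM (109.5 to 115). For Hnrnpc, mutSOD1-ACM replicate 3 was also low at 95.44 FPKM (109.7 to 116). For Srsf12, wtSOD1-ACM replicate 3 was high at 8.07 FPKM (5.95 to 6.23). In polyP against control, the calls of Hnrnpa1, Hnrnpab, Hnrnpd, Hnrnpr, Hnrnpm and Hnrnpc held without the polyP or control library concerned. In polyP against mutSOD1-ACM, Hnrnpc was not called without mutSOD1-ACM replicate 3 (0.236, limma adjusted p 0.0762).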

How the results depend on the processing

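With polyP against control, members higher numbered 19 to 20 and members lower 0 when each library was left out in turn, and the median change was 0.226 to 0.272. With polyP against mutSOD1-ACM the count was 13 to 16 higher and 0 lower, and the median 0.163 to 0.208. In the other comparisons counts were 0, with medians of 0.035 to 0.071 (mutSOD1-ACM against control), 0.029 to 0.087 (wtSOD1-ACM against control) and -0.003 to 0.032 (mutSOD1-ACM against wtSOD1-ACM). Medians of polyP against control moved to 0.146 with equal summed FPKM, with or without the library set as a term, and to 0.117 with quantile normalization. The combination with the set, chosen after seeing the data, called 17 members higher and 1 lower, Srsf11 (-0.209). In that fit 19.3% of all genes were higher and 29.2% lower. With polyP against mutSOD1-ACM, members higher moved to 9 (median-of-ratios), 8 (equal sums), 10 (quantile) and 0 (set 1 alone), and members lower to 1 in set 2 alone. Signs turned in polyP against control with equal sums, with or without the set, for Hnrnph1 (-0.016), Srsf5 (-0.045), Srsf4 (-0.046) and Srsf10 (-0.021), with quantile normalization for Hnrnpa2b1 (-0.028), Hnrnph1 (-0.009) and Srsf5 (-0.042), without polyP replicate 2 for Srsf12 (0.002, range -0.144 to 0.002) and without control replicate 4 for Srsf6 (0.001, range -0.138 to 0.001). Apart from Hnrnpa2b1, none of these genes was called. The causes were not tested. Srsf2 was called without control replicate 5 (adjusted p 0.0479). In polyP against control, deviations of same-numbered libraries correlated at r from 0.068 to 0.688. The replicate block gave 21 calls, all higher, where 30.2% of all genes were higher. It changed no call in the comparisons of conditioned media. Single members of the comparisons of conditioned media were followed for the 3 smallest p-values, a choice made after seeing the data, and kept their side of the threshold in each alternative run.

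Absolute depth, the assignment of reads between gene copies, and isoforms are out of reach of these values. The 2 library sets have no label, and their source is not given in the sources used here. Both conditioned media were compared with cultures that had no conditioned medium, so medium and astrocyte effects cannot be told apart there.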
